A study of Mus musculus with 54 samples.

Results

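The 6 arrays described here are those of retina from C3H mice homozygous for the rd1 allele, 3 taken at postnatal day (PN) 9 and 3 at PN13, out of 54 arrays in the series. They were chosen by genotype and age alone. The reference is the same pair of ages in wild-type (WT) C3H retina, also 3 arrays each. Arrays of rd1 PN11 (3), rd1 PN12 (2) and WT PN11 (3) place the changes within the interval. WT arrays of PN7 (3), PN8 (3), PN15 (2) and PN21 (2) served to choose the genes of normal maturation. WT arrays of PN5 (2) and PN6 (2) served an alternative choice. The spread behind the tests was estimated from 50 arrays of both genotypes, at 10 ages from PN5 to PN21. All groups share the C3H strain, and the labels name no treatment. The arrays are labelled as biological replicates, with no count of the mice behind each. Neural retina was dissected, so every value is an average over all retinal cells, and fewer cells of a type and less RNA per cell cannot be told apart.

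The rd1 allele disrupts Pde6b, the gene of the beta subunit of the rod cyclic GMP phosphodiesterase. This enzyme hydrolyses cyclic GMP when light activates transducin, and the fall in cyclic GMP closes the cation channel of the outer segment. Without it, cyclic GMP accumulates in rods, which begin to die in this model within the interval studied. In the normal mouse the same days are those in which rods and cones build outer segments, synapses form with bipolar cells, Müller glia mature and genes of immature neurons are switched off. The comparison asks which of these maturation changes went on in the mutant between PN9 and PN13, which stopped and which turned.

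Values are log2 of the deposited intensity of 1 probe set per gene, and differences are log2 differences (1 is a 2-fold change) each followed by ± and its standard error (SE). A gene is called higher or lower, and said to have risen or fallen, where limma's adjusted p, taken over 18193 genes, was under 0.05. From PN9 to PN13, 2731 genes rose in rd1 (15.0% of all genes tested) and 1892 fell (10.4%), 182 and 39 of them by at least 2-fold. In WT 1985 rose (10.9%) and 1775 fell (9.76%). The test of the difference itself, the change in rd1 minus the change in WT, called 311 genes higher (1.71%) and 299 lower (1.64%). Counts of list members below are to be read beside these shares of all genes. The replicate arrays of rd1 PN9 and rd1 PN13 correlated at 0.993 to 0.997 within each age. The median change of all genes in rd1 was 0.023. With quantile normalization it was -0.024 and the split became 2434 higher and 2639 lower. With every array centred on amacrine and ganglion cell genes it was -0.249, and the split became 1018 higher and 10001 lower. Directions below are therefore relative to the bulk of the measured genes, and the median of these lists went from above to below 0 under that centring: phototransduction, outer segment, ribbon synapse, amacrine, immediate early, heat shock, endoplasmic reticulum and integrated stress, oxidative stress and metal, 19S proteasome regulator, complement and chemokine, extracellular matrix, pigment epithelium, skeletal muscle, red blood cell and myelin. The amacrine list is itself part of the reference of that centring. The centring left the median difference between the genotypes near 0, at -0.002.

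Most of the normal maturation programme continued. Maturation genes were chosen on WT arrays of other ages, as those that differed by at least 1 on the log2 scale between the mean of PN15 and PN21 and the mean of PN7 and PN8. In that comparison 25.1% of the genes tested passed as higher and 27.5% as lower, and 417 rising and 279 falling genes passed the size limit. A gene of carried-over tissue can pass this choice too, and 1 of the rising genes is a lens gene. The array titles do not give the sex of the mice, so genes that differ by sex can also pass. Xist, such a gene, did pass as rising (2.01, adjusted p = 0.00542) and was called by neither test of PN9 to PN13. One of the arrays used, WT PN7 replicate 3, stood apart, with a mean of 12.58 over 16 lens genes against 6.20 and 6.33 in its replicates. Chosen without it, 417 genes were rising (9 lens genes in place of 1), of which 348 rose in rd1, and 282 were falling, of which 239 fell. A fit of all contrasts without it, added after the data were seen, gave 2743 genes higher and 1880 lower in rd1. Of the 417 rising genes, 354 rose in rd1 from PN9 to PN13 (84.9%, against 15.0% of all genes) and 413 rose in WT. The median rise was 0.763 in rd1 and 0.833 in WT. The test of the genotype difference called 85 of them lower in rd1 (20.4%, against 1.64% of all genes) and 11 higher. Of these 417, 297 rose with no called difference from WT, 46 rose but less than in WT (11.0%), 38 stalled (9.11%), meaning that no change was called in rd1 and that the genotype difference was called lower, and 24 were called by neither test. The only rising gene that fell in rd1 was the predicted gene Gm11342, and this call was lost without rd1 PN9 replicate 1 or 2 or rd1 PN13 replicate 1 or 2. Of the 279 falling genes, 237 fell in rd1 (84.9%, against 10.4%) and 265 fell in WT, with a median of -0.568 in rd1 and -0.646 in WT. The test of the genotype difference called 16 of them higher in rd1 (5.73%, against 1.71% of all genes) and 6 lower. Of the 279, 32 were called by neither test, 9 stalled, and Tmem176a alone rose (0.17 ± 0.06). Its call was lost without any 1 of the rd1 PN9 arrays or rd1 PN13 replicate 1 (adjusted p 0.0633 to 0.245), and its change turned to -0.10 under the centring. The count of stalled falling genes was 5 without any 1 of the WT PN9 arrays and 4 without WT PN13 replicate 2.

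**Figure D1:**
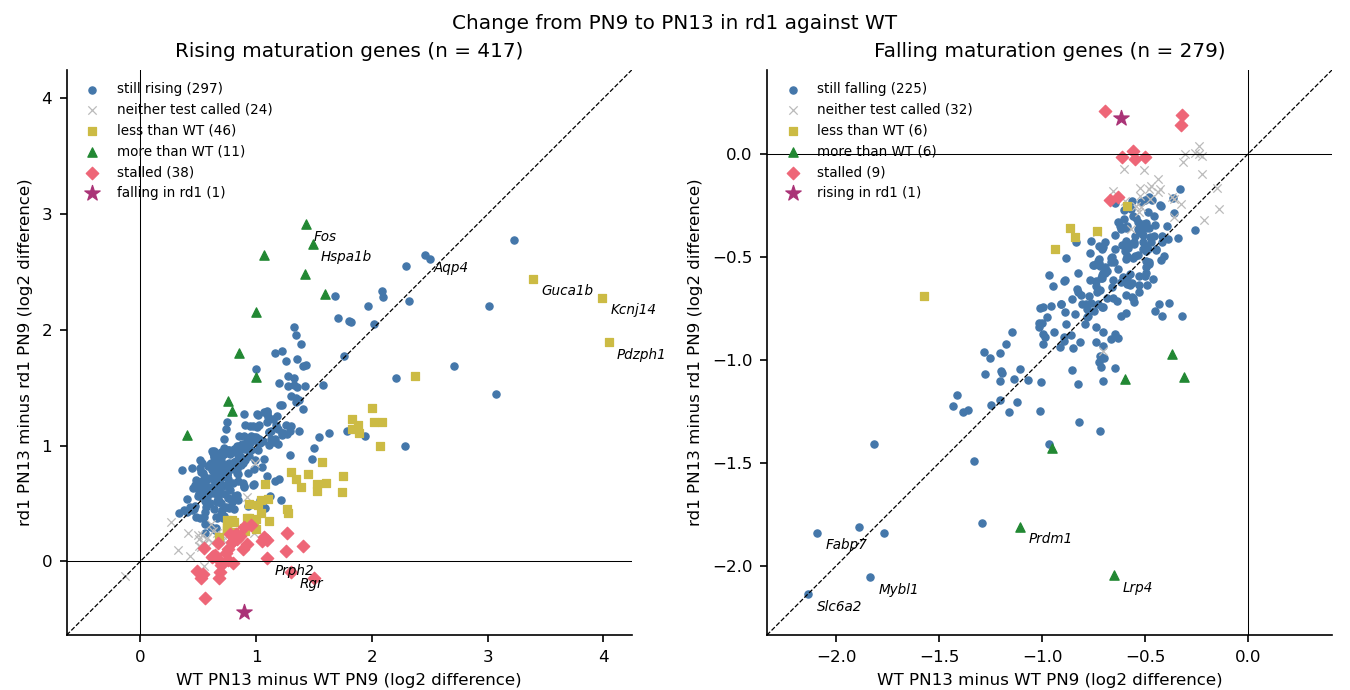
Log2 change from PN9 to PN13 in rd1 (vertical) against WT (horizontal) for 417 rising and 279 falling maturation genes, each point a gene, marked by its class, with equal change on the dashed line. Most rising genes lie near the line, the 38 stalled genes lie near 0 on the rd1 axis, and Lrp4 and Prdm1 lie below the line among falling genes.

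The classes were followed from PN9 to PN11 and from PN11 to PN13. The 297 genes that kept rising had a median change in rd1 of 0.508 from PN9 to PN11 and 0.343 from PN11 to PN13, against 0.589 and 0.241 in WT. The 46 genes that rose less had risen by a median of 0.579 from PN9 to PN11 in rd1, and then by 0.037. Over the same intervals their WT medians were 0.882 and 0.379. The 38 stalled genes had a median of 0.261 in the first interval and -0.17 in the second, against 0.582 and 0.229 in WT. The classes were defined from the PN9 and PN13 arrays, so these medians describe the course and carry no test. The median level of the stalled genes in rd1 minus that in WT was 0.036 at PN9 and -0.685 at PN13.

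Members of the lists of cell type genes were counted in each class. Of the 38 stalled genes, 7 are in the photoreceptor lists (18.4%), among them Prph2, Abca4, Cnga1, Gucy2e and Rgs9bp. Of the 46 that rose less, 7 are too (15.2%), and of the 24 called by neither test 4 are (16.7%). Of the 297 that rose with no called difference from WT, 14 are in those lists (4.71%). Another 14 (4.71%) are in the lists of bipolar, amacrine, ganglion and horizontal cells. Those of the photoreceptor lists include Gnat1, Pde6a, Slc24a1 and Cabp4, whose change was called lower in rd1 than in WT in a fit of only the arrays compared. None of the 84 stalled or slowed genes is in the bipolar, amacrine, ganglion and horizontal lists, and none of the 24 called by neither test is. These lists hold few rising genes, 14 of the 297 above, so an absence among 84 or 24 genes says little. Whether these shares differ between the classes was not tested, and the share of the lists among all rising genes was not computed. Of the 11 genes that rose more than in WT, 4 are in the immediate early and stress lists (among them Fos, Hspa1b and Mt1) and 2 in the glial lists (Clu and Cd44).

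Phototransduction genes rose in part and less than in WT. Pde6b itself, the mutated gene, gave 11.32, 11.15 and 11.10 in the PN9 arrays and 11.42, 11.23 and 11.43 in the PN13 arrays. The ages overlapped and the difference was 0.17 ± 0.17 (adjusted p = 0.557). The WT means were 12.79 and 13.15. Of the 17 other measured members, 6 rose in rd1, 1 fell and 10 were not called, while 16 rose in WT. The median change was 0.147 in rd1, -0.125 under centring on amacrine and ganglion genes, and 0.609 in WT. The test of the genotype difference called 9 of the 17 lower and none higher.

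Guca1b had the largest rise of the list. Guca1b and Guca1a encode guanylate cyclase activating proteins, the calcium sensors that restart cyclic GMP synthesis after light. Guca1b gave 9.89, 9.76 and 9.57 at PN9 and 12.19, 12.16 and 12.19 at PN13. The ages were far apart, with a rise of 2.44 ± 0.16 (5.43-fold, adjusted p = 4.43e-15), yet WT rose by 3.39 ± 0.16 and the difference of -0.95 ± 0.23 was called (adjusted p = 0.00965). Guca1a gave 9.62, 9.61 and 9.42 at PN9 and 10.79, 10.77 and 10.77 at PN13, a rise of 1.23 ± 0.11 in rd1 against 1.83 ± 0.11 in WT. The call of its genotype difference (adjusted p = 0.0136) was lost without WT PN13 replicate 3 (adjusted p = 0.0695).

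Rod transducin alpha, Gnat1, which activates the phosphodiesterase in light, gave 12.17, 12.20 and 11.83 at PN9 and 13.59, 13.71 and 13.65 at PN13, a rise of 1.58 ± 0.23. Its rise in WT was 2.21 ± 0.23, and the difference of -0.62 ± 0.32 was not called (adjusted p = 0.413), though it was in a fit of only the arrays compared (adjusted p = 0.0157, and 0.00979 with the replicate number as a block). Pde6a, the alpha subunit that pairs with Pde6b, rose by 1.12 ± 0.19 in rd1 and 1.78 ± 0.19 in WT. The difference of -0.66 ± 0.26 was not called (adjusted p = 0.214), but was in the fit of only the arrays compared (0.0195, and 0.0271 with the block). Slc24a1, the rod sodium, calcium and potassium exchanger, rose by 1.08 ± 0.22 and 1.94 ± 0.22. Its difference of -0.86 ± 0.30 was not called either (adjusted p = 0.141), but was in that fit (0.00335, and 0.00145 with the block) and with array weights (0.016). Recoverin (Rcvrn) rose by 0.30 ± 0.11 and phosducin (Pdc) fell by 0.19 on the log2 scale. Both calls were near the threshold, and Rcvrn was not called under the centring (0.03). That of Rcvrn was lost without any 1 of the 6 arrays (adjusted p 0.0729 to 0.13), and that of Pdc without 4 of them, PN9 replicates 1 and 2 and PN13 replicates 1 and 2 (0.101 to 0.177).

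Cnga1 and Cngb1 of the channel, Gucy2e of cyclic GMP synthesis and Rgs9bp of transducin deactivation were not called in rd1 and rose in WT. The channel subunit Cnga1 gave 11.29, 11.34 and 11.15 at PN9 and 11.10, 11.10 and 11.15 at PN13. The highest PN13 array was level with the lowest PN9 array, and the difference was not called (-0.15 ± 0.10, adjusted p = 0.329), while WT rose by 0.68 ± 0.10, and the genotype difference was -0.82 ± 0.14 (adjusted p = 0.000121). For Cngb1, the other channel subunit, the differences were -0.22 ± 0.09 in rd1 and 0.40 ± 0.09 in WT. They were -0.32 ± 0.15 and 0.56 ± 0.15 for Gucy2e, a retinal guanylate cyclase, and 0.24 ± 0.10 and 0.83 ± 0.10 for Rgs9bp, which anchors the transducin deactivating complex. In each the genotype difference was called, with adjusted p-values of 0.00142, 0.00925 and 0.0114. With quantile normalization the changes of Cngb1 and Gucy2e in rd1 were called as falls (-0.24 and -0.41, adjusted p 0.0315 and 0.0324), and under the centring that of Cnga1 was too (-0.42, adjusted p = 0.000507). In the fit of only the arrays compared Cngb1 was called lower (adjusted p = 0.00808) and Rgs9bp higher (0.0255, and 0.0176 with the block), so that Rgs9bp no longer counted as stalled.

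The first 250 bases upstream of the start of Guca1a are shown since it had the largest rise among phototransduction genes that have an entry in the RefSeq promoter table (GRCm38.p6, chr17:47400607-47400856, minus strand). The capitals mark a match to the CRX motif TAATCC, read from the other strand, at bases -57 to -52.
Guca1a: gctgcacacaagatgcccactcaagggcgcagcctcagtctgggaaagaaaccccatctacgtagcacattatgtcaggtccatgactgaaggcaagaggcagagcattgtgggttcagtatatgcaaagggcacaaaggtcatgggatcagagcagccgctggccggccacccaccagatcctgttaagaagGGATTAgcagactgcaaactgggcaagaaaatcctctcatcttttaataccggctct
These letters, searched on both strands, are in 6 of the 11 phototransduction promoters of the table (54.5%) and in 6.25% of all 32851 promoters of the same length. The 6 hold genes that rose in rd1 (Guca1a), that stalled (Cnga1 and Gucy2e) and that were called by neither test (Sag and Gngt1, of which Gngt1 was called higher in rd1 in the fit of only the arrays compared), beside Cngb1. A match describes the letters and is not a measured binding site.

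**Figure D2:**
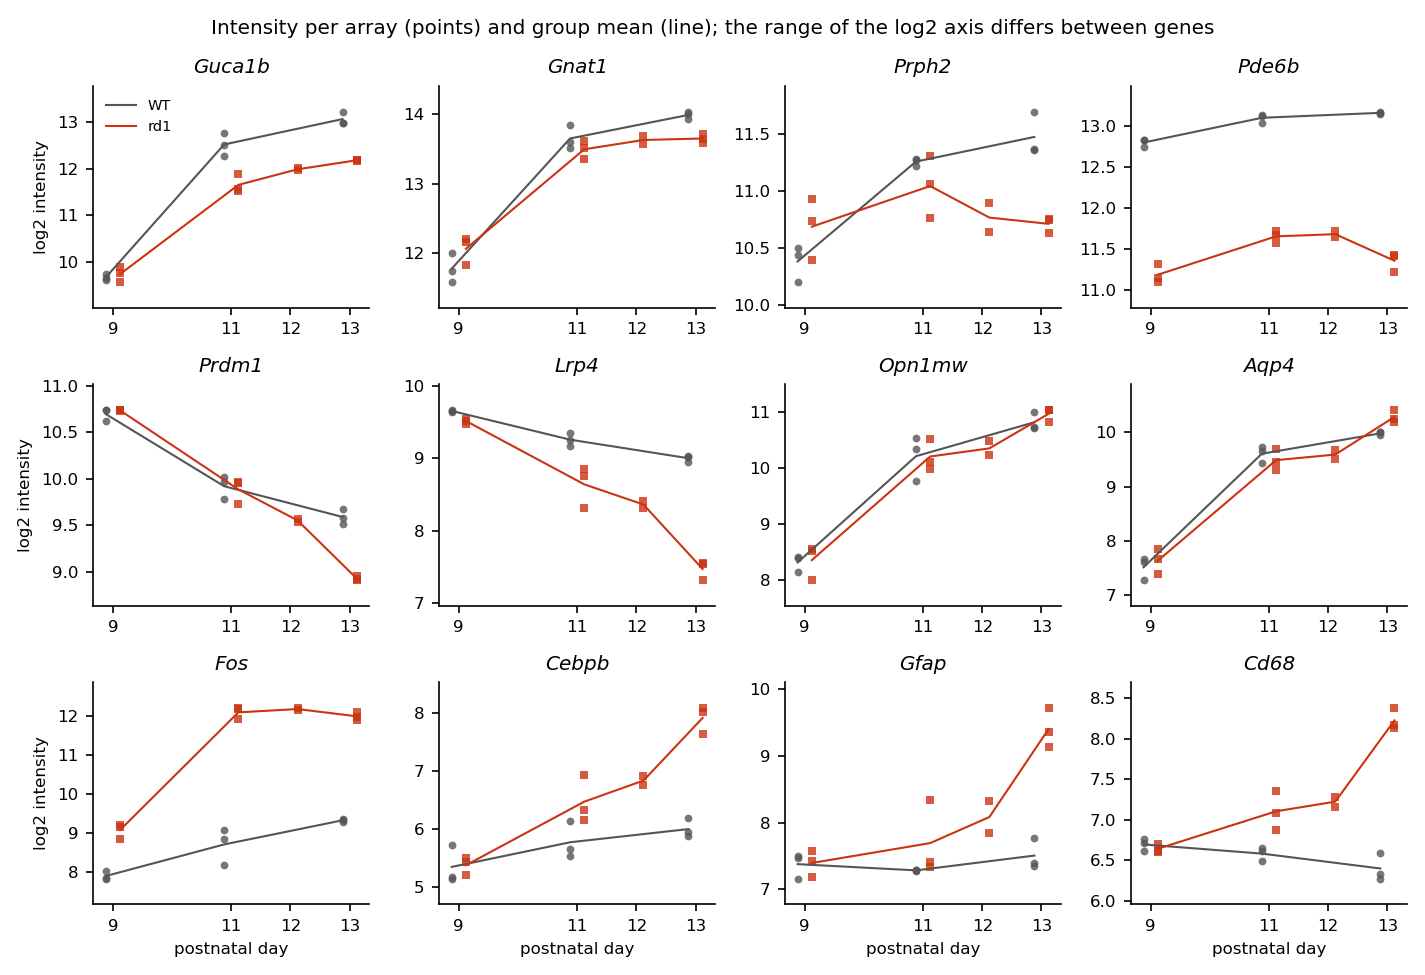
Log2 intensity of each array (points) and group mean (lines) at PN9, PN11, PN12 and PN13 in rd1 and at PN9, PN11 and PN13 in WT, for 12 genes. The Fos means in rd1 rose by PN11 and stayed near that level, Gfap and Cd68 rose mostly after PN12, and Opn1mw and Aqp4 rose in both genotypes.

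Outer segment and retinoid genes moved both ways. Of 26 measured, 5 rose and 7 fell in rd1 (15.0% and 10.4% of all genes), against 15 and 1 in WT. The test of the genotype difference called 9 lower (1.64% of all genes). The median change was 0.026 in rd1, -0.246 under the centring, and 0.332 in WT. Peripherin 2 (Prph2), which bends the disc rims, gave 10.40, 10.93 and 10.74 at PN9 and 10.75, 10.64 and 10.76 at PN13. These values overlapped and differed by 0.03 ± 0.16, while WT rose by 1.09 ± 0.16 (difference -1.07 ± 0.22, adjusted p = 0.00234). For Abca4, the retinoid transporter of the disc rim, the differences were 0.18 ± 0.09 in rd1 and 0.80 ± 0.09 in WT (adjusted p of the difference = 0.00294). In the fit of only the arrays compared the rd1 difference of Abca4 was called higher (adjusted p = 0.0481, and 0.0361 with the block).

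Among those that rose, the actin bundling gene Fscn2 gave 6.66, 6.62 and 6.71 at PN9 and 7.45, 7.22 and 7.15 at PN13, a rise of 0.61 ± 0.13 against 1.53 ± 0.13 in WT. Aipl1, a chaperone for the rod phosphodiesterase, rose by 0.56 ± 0.12 in rd1 and 0.82 ± 0.12 in WT, with no call for the difference (adjusted p = 0.548). Rp1l1, a protein of the photoreceptor axoneme, turned: it gave 10.33, 10.37 and 10.30 at PN9 and 9.72, 9.83 and 9.79 at PN13. It fell by 0.55 on the log2 scale in rd1 (adjusted p = 2.74e-06) and rose by 0.33 ± 0.09 in WT. Nxnl2, a thioredoxin-like photoreceptor factor, fell by 0.52, and the WT difference was 0.21 ± 0.10. Elovl2, which lengthens fatty acids, fell in both genotypes, by 1.10 in rd1 and 0.71 in WT.

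Among genes of the photoreceptor cilium, through which the outer segment is supplied, more fell than rose in rd1. Of 26 measured genes 6 rose and 10 fell (1 and 18 under the centring), where WT had 10 and 1, and 5 were called lower in rd1 than in WT. Cep290 of the transition zone gave 9.33, 9.81 and 8.82 at PN9 and 8.19, 8.59 and 8.79 at PN13, a fall of 0.80 (adjusted p = 0.00164). The PN9 arrays spread widely, and the lowest of them lay just above the highest PN13 array. Rpgr, also of the transition zone, fell by 0.79. The genotype difference was called for neither (adjusted p 0.129 and 0.306). It was called for Bbs9, a subunit of the complex that moves membrane proteins, at -0.54 ± 0.12, and for Lca5 at -0.69 ± 0.12. Ift20, an intraflagellar transport gene, went the other way and rose by 0.47 ± 0.06.

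Most transcription factors of photoreceptors fell. Of 14 measured, 2 rose and 10 fell in rd1, 2 rose and 5 fell in WT, and 5 were called lower by the test of the genotype difference. Prdm1, which holds photoreceptor precursors from the bipolar fate, gave 10.74, 10.74 and 10.73 at PN9 and 8.95, 8.92 and 8.91 at PN13. The fall of 1.81 (3.51-fold lower, adjusted p = 7.33e-20) exceeded that in WT, 1.11, and the difference of -0.70 ± 0.11 was called (adjusted p = 6.09e-05). Samd11, a rod corepressor, gave 12.48, 12.46 and 12.33 at PN9 and 11.44, 11.38 and 11.20 at PN13. It fell by 1.08 in rd1 and by 0.31 in WT, and its 2 probe sets disagreed, the other giving 0.103 in rd1. With the mean of both, its genotype difference was not called (adjusted p = 0.144).

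Crx, which drives rod and cone genes, gave 12.47, 12.48 and 12.27 at PN9 and 11.94, 11.99 and 12.10 at PN13. All PN13 arrays lay below the PN9 arrays, with a fall of 0.40 in rd1 (adjusted p = 2.35e-06), where the WT difference was 0.11 ± 0.06 (difference -0.50 ± 0.09, adjusted p = 0.000159). Nrl, which sets rod fate, fell by 0.23, with a difference of -0.36 ± 0.09 from WT (adjusted p = 0.0086). Otx2 fell by 0.72 in rd1 and 0.55 in WT. Mef2c rose by 0.83 ± 0.10 and 0.87 ± 0.10 in rd1 and WT.

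More cone genes rose than fell in both genotypes. Of 13 measured, 8 rose and 3 fell in rd1, against 7 and 3 in WT, and the median change was 0.284 and 0.429. The middle wavelength opsin Opn1mw gave 8.52, 8.57 and 8.00 at PN9 and 11.03, 10.83 and 11.04 at PN13. It rose by 2.61 ± 0.22 (6.1-fold, adjusted p = 2.88e-12) in rd1 and 2.50 ± 0.22 in WT. The short wavelength opsin Opn1sw rose by 0.62 ± 0.08 and 0.52 ± 0.08. Pde6h, an inhibitory subunit of the cone phosphodiesterase, gave 7.90, 7.49 and 7.41 at PN9 and 10.01, 9.67 and 9.99 at PN13, a rise of 2.29 ± 0.18 against 1.68 ± 0.18 in WT, with no call for the difference (adjusted p = 0.233). Cone arrestin (Arr3), which quenches active cone opsin, rose by 1.38 ± 0.12 in rd1 and 0.75 ± 0.12 in WT. That difference was called (adjusted p = 0.0196) and was lost on leaving out rd1 PN9 replicate 1, rd1 PN13 replicate 3, or replicate 2 of either WT age (adjusted p 0.0644 to 0.102), with the mean of all probe sets (0.0563) and in the fit of only the arrays compared (0.051, and 0.0514 with the block). The 3 that fell in rd1, Otop3, Cngb3 and Gngt2, by 0.70, 0.67 and 0.64, also fell in WT, by 0.68, 0.51 and 0.50.

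Of 26 genes of the ribbon synapse of photoreceptors and bipolar cells, 10 rose and 3 fell in rd1, against 16 and 1 in WT, and 7 were called lower by the test of the genotype difference. The median of 0.127 in rd1 became -0.145 under the centring. The calcium sensor Cabp4 rose by 1.08 ± 0.19 in rd1 and 1.55 ± 0.19 in WT. Its difference was not called (adjusted p = 0.498), but was in the fit of only the arrays compared (0.00494, and 0.0129 with the block). The complexin Cplx4 rose by 0.82 ± 0.12 in rd1. Dystrophin (Dmd) and pikachurin (Egflam), which link the photoreceptor terminal to bipolar dendrites, fell by 0.53 and 0.52 in rd1, while the WT difference was 0.01 ± 0.08 and -0.02 ± 0.08 (adjusted p of the difference 0.00325 and 0.00647).

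In bipolar cells, 14 of 19 measured genes rose in rd1 and none fell (9 and 3 under the centring), against 11 and 1 in WT. The test of the genotype difference called none. The largest was Gng13, a G protein subunit of ON bipolar cells, with 8.99, 8.89 and 8.65 at PN9 and 11.05, 10.75 and 10.97 at PN13, a rise of 2.08 ± 0.23 in rd1 and 1.81 ± 0.23 in WT. Its other probe set gave 0.064 in rd1. Car8 rose by 1.14 ± 0.21 and the calcium binding protein Cabp5 by 0.95 ± 0.18. Ganglion cell genes rose in 7 of 14 cases with none falling (6 and 5 under the centring), among them the neurofilament Nefh (1.25 ± 0.11) and Thy1 (0.97 ± 0.09). Amacrine genes rose in 7 of 16 cases and fell in 2 (median 0.055), but under the centring 4 rose and 9 fell (median -0.217). The centring makes the mean of the amacrine and ganglion genes equal in all arrays, so their counts under it are no check on either list. The calcium buffer calretinin (Calb2) rose by 0.87 ± 0.07 and the GABA synthesizing enzyme Gad1 by 0.58 ± 0.08. Of 7 horizontal cell genes 2 rose, with calbindin (Calb1) at 1.43 ± 0.10, and 3 fell, with Onecut2 falling by 0.60. No gene of these 3 lists was called by the test of the genotype difference.

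**Figure D3:**
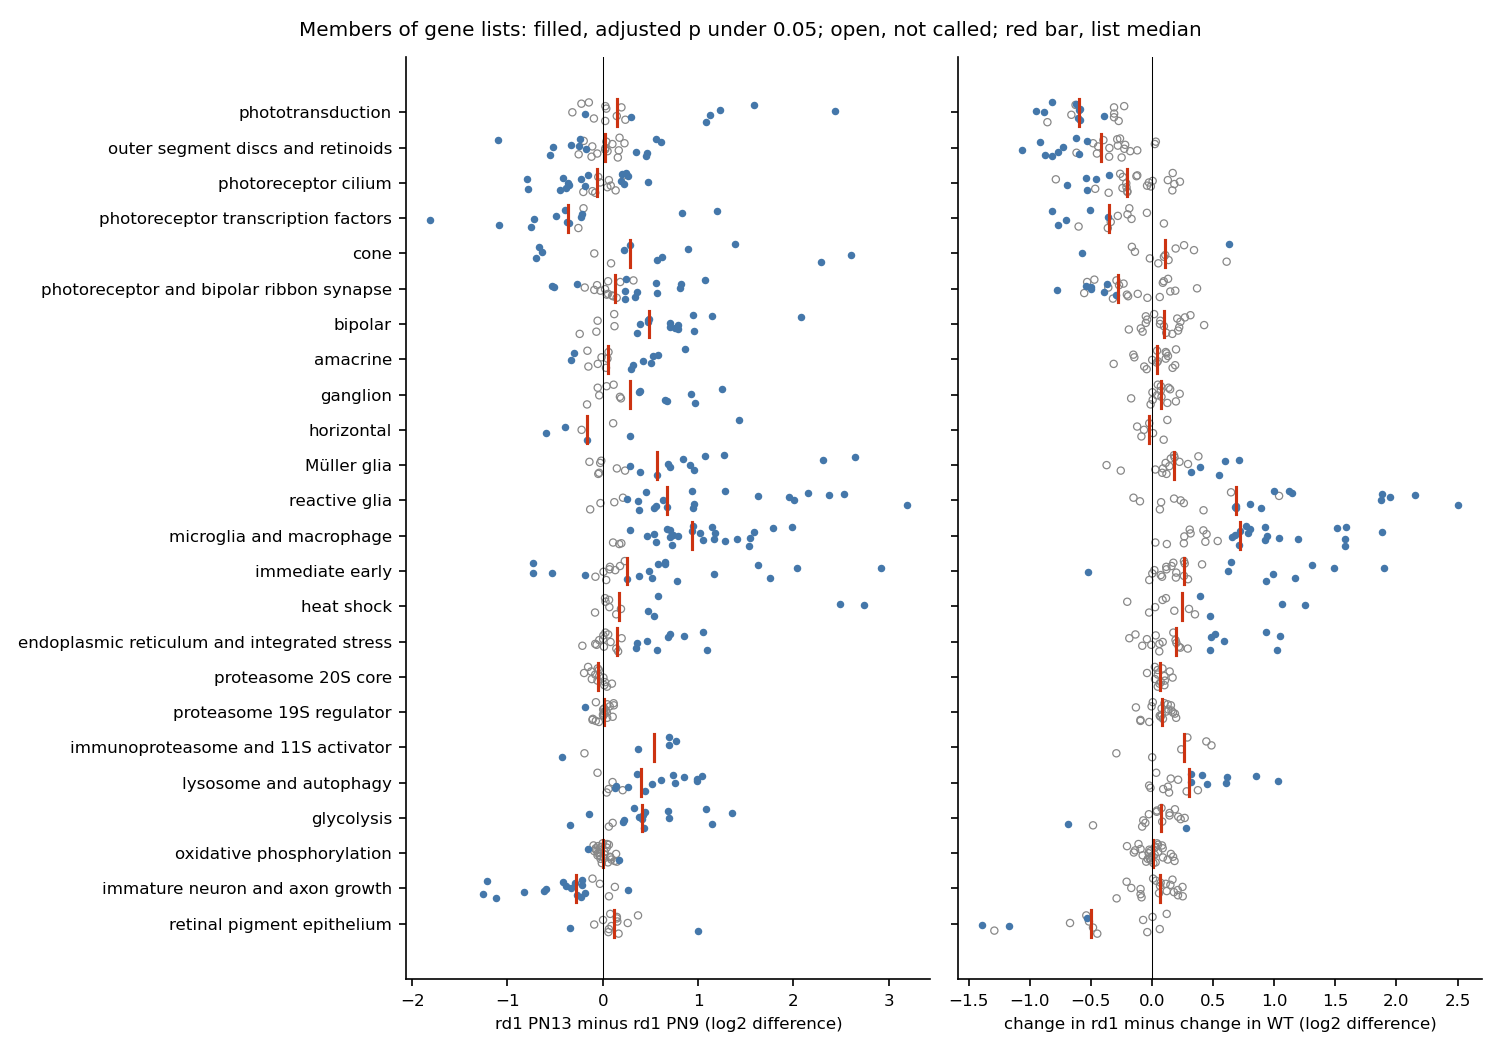
Log2 difference of each measured member of 24 gene lists, for rd1 PN13 minus rd1 PN9 (left) and for the change in rd1 minus the change in WT (right), filled where adjusted p was under 0.05, with the list median as a red bar. In the right panel the medians of the phototransduction, outer segment, cilium, photoreceptor transcription factor and ribbon synapse lists lie left of 0 and that of the cone list lies at 0.109. The medians of reactive glia and microglia lie right of 0 in both panels, and those of the proteasome core are -0.047 and 0.068.

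Müller glia, which span the retina and clear potassium, water and glutamate, had more genes that rose than fell in both genotypes. Of 19 measured, 12 rose and none fell in rd1 (10 and 5 under the centring), and 10 rose and 2 fell in WT. The test of the genotype difference called 5 higher. The water channel Aqp4 gave 7.68, 7.85 and 7.39 at PN9 and 10.20, 10.24 and 10.41 at PN13, a rise of 2.65 ± 0.18 (6.26-fold) in rd1 and 2.46 ± 0.18 in WT. The potassium channel Kcnj10 rose by 0.96 ± 0.10 and 0.93 ± 0.10. Clusterin (Clu), a secreted chaperone, rose by 2.31 ± 0.12 against 1.60 ± 0.12 in WT (adjusted p of the difference = 0.00915). Crym, a thyroid hormone binding protein, gave 11.48, 11.45 and 11.29 at PN9 and 11.42, 11.28 and 11.47 at PN13. The difference was -0.02 ± 0.07 in rd1, and it fell by 0.61 in WT (adjusted p of the difference = 7.27e-05). Under the centring it fell in rd1 as well, by 0.29.

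Genes of the glial reaction rose in rd1 with little change in WT. Of 23 measured, 19 rose and none fell (14 and 1 under the centring), against 5 and 0 in WT. The test of the genotype difference called 13 of them higher, and 1.71% of all genes. S100a6, a calcium binding protein, had the largest fitted rise of all genes tested. It gave 4.88, 4.88 and 4.95 at PN9 and 7.92, 7.99 and 8.37 at PN13. The rise on the log2 scale was 3.19 ± 0.22 (adjusted p = 1.34e-14) against 0.68 ± 0.22 in WT. Its PN9 values are low, and whether they lie above the background of the arrays was not tested, so no fold is given. Gfap, the intermediate filament of reactive glia, gave 7.43, 7.18 and 7.58 at PN9 and 9.36, 9.13 and 9.72 at PN13, a rise of 2.00 ± 0.18, where the WT difference was 0.13 ± 0.18. The transcription factors Cebpd and Cebpb rose by 2.38 ± 0.12 and 2.53 ± 0.16. Edn2, an endothelin made by stressed photoreceptors, gave 5.42, 5.34 and 5.48 at PN9 and 7.10, 7.43 and 7.56 at PN13, a rise of 1.95 ± 0.14, where the WT difference was 0.01 ± 0.14. The limit given for the low PN9 values of S100a6 holds for those of Edn2 too.

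Most microglia and macrophage genes rose in rd1. Of 27 measured, 24 rose and none fell in rd1, 6 rose and 1 fell in WT, and 17 were called higher by the test of the genotype difference. The mean level over the list was 6.87 to 6.91 in the PN9 arrays and 7.80 to 7.87 in the PN13 arrays of rd1, with no overlap. In WT it was 6.90 to 7.02 and 7.08 to 7.11. The complement gene C1qa gave 8.20, 8.47 and 8.18 at PN9 and 10.21, 10.20 and 10.38 at PN13, a rise of 1.98 ± 0.10. Cd68, a lysosomal protein of phagocytes, gave 6.60, 6.61 and 6.71 and then 8.17, 8.14 and 8.38. It rose by 1.59 ± 0.11 in rd1 and fell by 0.30 in WT. Tyrobp, a microglial signalling adaptor, rose by 1.54 ± 0.10 against -0.04 ± 0.10. Tmem119, Siglech and Spi1, which also mark these cells, were not called, at 0.17, 0.11 and 0.20.

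Lysosomal genes rose in 13 of 18 cases in rd1 with none falling (8 and 6 under the centring), against 6 and 1 in WT, and 8 were called higher by the test of the genotype difference. The cathepsins Ctsc and Ctsz, which phagocytes express at high levels, rose by 1.04 ± 0.08 and 0.98 ± 0.10, where the WT difference was 0.19 ± 0.08 and -0.04 ± 0.10. Cathepsin D (Ctsd) rose by 0.86 ± 0.06 against 0.24 ± 0.06. The rise moved with that of the microglia list, and the part of that list in it was not tested.

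The intervals before and after PN11 were also tested separately. Between PN9 and PN11, 1146 genes rose (6.3%) and 602 fell (3.31%) in rd1, and between PN11 and PN13, 730 rose (4.01%) and 366 fell (2.01%). These counts depended on single arrays. The first was 693 higher and 375 lower without rd1 PN11 replicate 1, and its lower count was 400 without rd1 PN9 replicate 2 and 390 without rd1 PN11 replicate 3. The second was 411 and 167 without rd1 PN11 replicate 2, 422 and 234 without rd1 PN11 replicate 3, and 462 and 211 without rd1 PN13 replicate 1, and its lower count was 224 without rd1 PN13 replicate 2. Reactive glia genes rose in 9 of 23 cases in the first interval and 14 in the second. For microglia genes the counts were 13 and 21 of 27. For immediate early genes they were 11 and 2 of 25, for phototransduction genes 8 and 2 of 17, with 1 falling in the second, and for photoreceptor transcription factors 5 and then 8 of 14 fell. The intervals share the PN11 arrays. The test of the genotype difference over PN11 to PN13, added after these counts were seen, called 70 genes higher (0.385%) and 21 lower (0.115%), with 11 of 23 reactive glia and 10 of 27 microglia genes higher, and 1 phototransduction gene and 3 photoreceptor transcription factors lower. Its counts were 46 higher without rd1 PN11 replicate 2 or 3, and its lower count was 11 without WT PN11 replicate 3 or rd1 PN11 replicate 2, 13 without rd1 PN13 replicate 2 and 33 without WT PN11 replicate 1.

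**Figure D4:**
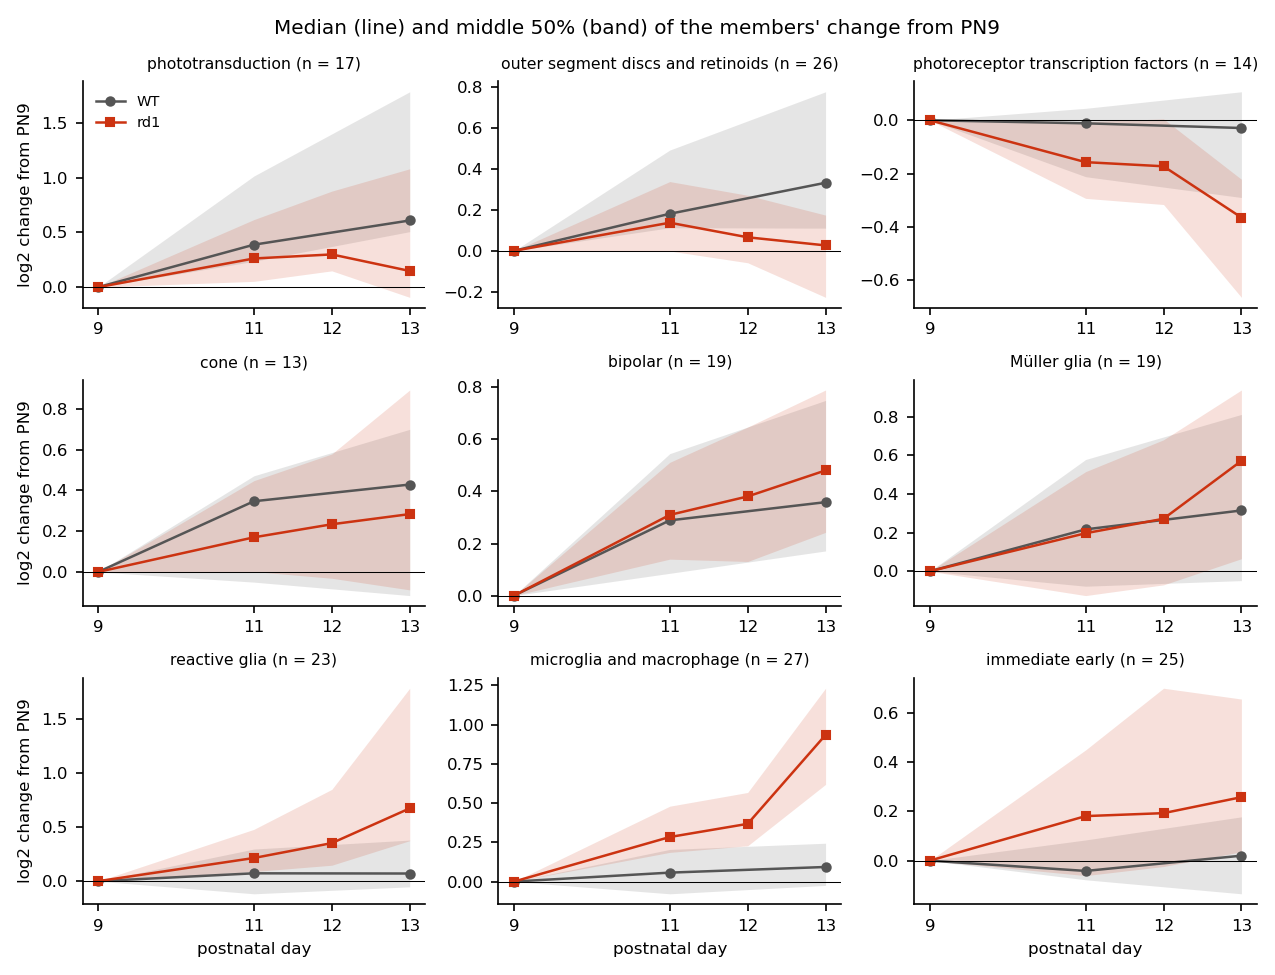
Median (line) and middle 50% (band) of the members' log2 change from PN9 at each age in rd1 and WT, for 9 gene lists. In rd1 the phototransduction median was 0.299 at PN12 and 0.148 at PN13, while the microglia median was 0.284 at PN11 and 0.935 at PN13.

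Immediate early genes are switched on within minutes by calcium, cyclic AMP or growth factor signals. Of 25 measured, 13 rose and 4 fell in rd1, against 5 and 4 in WT, and 8 were called higher and 1 lower by the test of the genotype difference. The list median of 0.258 became -0.014 under the centring. Fos gave 9.21, 9.14 and 8.84 at PN9 and 11.89, 11.96 and 12.09 at PN13. It rose by 2.92 ± 0.16 (7.54-fold, adjusted p = 9.27e-18) in rd1 and 1.43 ± 0.16 in WT. All of this rise was present by PN11, where the mean was 12.08, and the difference from PN11 to PN13 was -0.10. Fosb gave 5.32, 5.58 and 5.25 and then 7.44, 7.53 and 7.31, a rise of 2.04 ± 0.12 where the WT difference was 0.15 ± 0.12. Whether its low PN9 values lie above the background of the arrays was not tested. Nr4a1 and Egr1 rose by 1.76 ± 0.10 and 1.63 ± 0.19 in rd1, 1.78 each by PN11. Jun and Btg2 fell by 0.73 each, as in WT, where they fell by 0.73 and 0.91.

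The bases upstream of Fos are shown as those of the immediate early gene with the largest rise (RefSeq, GRCm38.p6, chr12:85473640-85473889, plus strand).
Fos: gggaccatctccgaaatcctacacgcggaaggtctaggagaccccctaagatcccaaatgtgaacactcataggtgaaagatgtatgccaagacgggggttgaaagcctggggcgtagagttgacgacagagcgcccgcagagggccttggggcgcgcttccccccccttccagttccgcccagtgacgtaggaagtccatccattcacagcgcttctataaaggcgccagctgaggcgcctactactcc
Neither the cyclic AMP response element TGACGTCA nor the core of the serum response element is present in this window on either strand, so no base is in capitals. The first is in 2 of the 23 promoters of the list's 19 genes with an entry (8.7%) and in 1.55% of all promoters. The second is in none of the 23 and in 0.0609% of all. Only exact matches within the window were searched. Variants of either element and bases further upstream were not tested, so the search cannot decide whether the Fos promoter lacks them.

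Of 12 heat shock genes 5 rose and none fell, with a median of 0.166 that became -0.106 under the centring. The inducible chaperone Hspa1b gave 7.92, 8.09 and 7.60 at PN9 and 10.68, 10.56 and 10.60 at PN13, a rise of 2.74 ± 0.14 in rd1 against 1.49 ± 0.14 in WT (adjusted p of the difference = 7.17e-05). Hsph1, its nucleotide exchange factor, rose by 0.54 ± 0.07. Hspa8, Hsp90aa1 and Dnajb1, picked after their values were seen, were not called, at 0.07, 0.03 and 0.07, and were called lower under the centring. Of 22 genes of endoplasmic reticulum and integrated stress 9 rose and none fell (median 0.152, and -0.120 under the centring), and 7 were called higher by the test of the genotype difference. Those that rose are led by targets of the transcription factor Atf4: Trib3 (1.10 ± 0.08), Asns (1.06 ± 0.07) and Chac1 (0.85 ± 0.09), where the WT difference was 0.08, 0.12 and -0.19. The chaperones of the endoplasmic reticulum Hspa5, Hsp90b1 and Calr, picked in the same way, gave -0.07, -0.08 and 0.01 and were not called, and were called lower under the centring. The metallothioneins Mt1 and Mt2, which bind zinc, rose by 2.65 ± 0.15 and 1.97 ± 0.16 in rd1 and by 1.07 ± 0.15 and 0.66 ± 0.16 in WT.

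The title of the series names the proteasome, the protease complex that degrades ubiquitin-tagged proteins. None of 14 core subunit genes was called in rd1 (median -0.047, range -0.196 to 0.096), and 1 of 20 regulatory particle genes was, Psmc6, which fell by 0.18 and lost its call without rd1 PN9 replicate 3 or rd1 PN13 replicate 1 or 2 (adjusted p 0.101 to 0.192). Under the centring 14 and 19 of them were called lower, and the genotype difference was called for none under either scaling. Of 6 genes of the inducible subunits and their activator, 4 rose and 1 fell. Psmb8 gave 6.80, 6.56 and 6.84 at PN9 and 7.64, 7.36 and 7.51 at PN13, a rise of 0.77 ± 0.15, and Psmb9 and Psmb10 rose by 0.70 ± 0.13 and 0.70 ± 0.11. Their genotype differences were not called (adjusted p 0.327, 0.193 and 0.416). Interferon and antigen presentation genes, to which the inducible subunits are linked, rose in 9 of 16 cases in rd1 and 11 in WT, with none called by the test of the difference. The list mean was 7.43 to 7.71 in rd1 at PN13 and 7.71 to 8.21 in WT. B2m, the light chain of class I molecules, rose by 1.74 ± 0.20 and 1.61 ± 0.20.

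Of 24 cell death genes 5 rose and 3 fell (3 and 13 under the centring), where 15.0% of all genes rose and 10.4% fell in rd1. Calpastatin (Cast), the calpain inhibitor, rose by 0.69 ± 0.10 in rd1 and 0.65 ± 0.10 in WT, and the tumour necrosis factor receptor Tnfrsf1a by 0.66 ± 0.06, where the WT difference was 0.01 ± 0.06. Glycolysis genes rose in 13 of 17 cases and fell in 2 in rd1 (7 and 4 under the centring), against 10 and 0 in WT. Hexokinase 2 (Hk2), which photoreceptors express, rose by 1.35 ± 0.10 and 1.21 ± 0.10. Slc16a1, a lactate transporter, rose by 1.14 ± 0.11 against 1.83 ± 0.11 (adjusted p of the difference = 0.00396). Of 29 oxidative phosphorylation genes 1 rose and 1 fell, and under the centring 0 and 25.

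Genes of immature neurons fell in both genotypes. Of 20 measured, 15 fell and 1 rose in rd1, 13 fell in WT, and none was called by the test of the genotype difference. Doublecortin (Dcx), a microtubule protein of young neurons, gave 9.29, 9.30 and 9.40 at PN9 and 8.10, 8.09 and 8.15 at PN13, a fall of 1.22 in rd1 and 1.25 in WT. Sox4, a transcription factor of the same stage, fell by 1.26, and Sox11, counted among progenitor genes, fell by 1.26 in rd1 and 1.38 in WT. Of 23 progenitor and cell cycle genes 5 fell and none rose in rd1, against 11 and 0 in WT. The largest falls of all genes tested were those of the noradrenaline transporter Slc6a2, by 2.14 in rd1 and 2.13 in WT, of Mybl1, by 2.06, and of Lrp4, by 2.04. Lrp4, a receptor of the LDL receptor family, gave 9.55, 9.52 and 9.48 at PN9 and 7.31, 7.55 and 7.54 at PN13, and fell by 0.65 in WT (difference -1.39 ± 0.12, adjusted p = 1.62e-10).

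The gene with the largest shortfall was Pdzph1. It gave 6.56, 6.51 and 6.25 at PN9 and 8.17, 8.45 and 8.38 at PN13, a rise of 1.90 ± 0.19 against 4.04 ± 0.19 in WT (difference -2.15 ± 0.26, adjusted p = 4.3e-07). The potassium channel Kcnj14 gave 7.47, 7.20 and 7.17 and then 9.61, 9.56 and 9.49, a rise of 2.28 ± 0.22 against 3.99 ± 0.22. Its PN9 mean in WT was 5.95, so rd1 started higher and ended lower than WT, whose PN13 mean was 9.94. The largest excess was that of Pcolce, which enhances collagen processing. It gave 5.95, 5.94 and 5.71 at PN9 and 8.49, 8.44 and 8.40 at PN13, a rise of 2.58 ± 0.12, where the WT difference was 0.05 ± 0.12. These PN9 values are low, and whether they lie above the background of the arrays was not tested. Aqp1, a water channel, rose by 2.78 ± 0.22 in rd1 and 3.22 ± 0.22 in WT.

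Genes of other tissue were followed beside these. The pigment epithelium list, whose genes belong to the layer behind the neural retina, had a mean of 6.77 to 6.85 in rd1 at PN9 and 6.83 to 7.04 at PN13, and in WT of 6.67 to 6.99 and 7.37 to 7.57. Of its 14 genes 1 rose and 1 fell in rd1 (median 0.12, and -0.152 under the centring) while 8 rose in WT, and 3 were called lower by the test of the genotype difference. Rgr and Rpe65, both of this list, are among the stalled maturation genes. Rgr gave 6.85, 6.85 and 7.10 at PN9 and 7.02, 6.95 and 6.56 at PN13 (-0.09 ± 0.21, against 1.30 ± 0.21 in WT). For Rpe65, the retinoid isomerase, the differences were 0.09 ± 0.20 and 1.26 ± 0.20, and its genotype difference lost its call without rd1 PN13 replicate 3 (adjusted p = 0.055). The part of pigment epithelium carried over in dissection in these differences was not tested. No skeletal muscle or red blood cell gene was called in rd1 or in WT, and of 9 myelin genes 1 fell in each. No lens gene was called either, but lens genes varied widely between arrays that share the estimate of the spread, with WT PN7 replicate 3 at 12.58 and rd1 PN21 replicate 1 at 10.12. In the fit of only the arrays compared 1 of 16 lens genes was called higher in rd1 and 3 in WT. The lens mean was 6.21 to 6.74 in rd1 at PN9 and 6.51 to 7.03 at PN13, and 6.19 to 6.71 and 6.62 to 7.08 in WT.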

How the data were processed

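Retinal RNA was labelled as biotin-cRNA and measured on oligonucleotide arrays. The deposited table holds linear intensities, 1 for each array and probe set, made by the authors with RMA per the submitters' processing notes, whose version and joint or separate normalization of the ages are not given in the sources used here. Array medians lay between 127 and 134. Log2 was taken here, although log2 values had been assumed when the tests were chosen. Of 45037 probe sets, 34945 name 1 gene symbol, 932 name several and 9160 none, and only the first kind was used. Each gene was represented by its brightest probe set (by mean log2 over all arrays), which left 18193 genes, 9010 of them with several probe sets. No minimum intensity was applied, and the number of arrays limits the precision.

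The linear model was that of limma 3.58.1 (R 4.3.3). It took 50 arrays of 10 ages and gave each combination of age and genotype its own mean, which left 30 residual degrees of freedom, and variances were moderated with an intensity trend. P-values are 2-sided and adjusted by Benjamini-Hochberg over all genes of a contrast. The fit was tested on simulated data. The members and the 36 gene lists (684 entries, 631 measured) were chosen with earlier results of these data known. Alternatives were the scaling, the filter on dim genes, the probe set rule, the variance trend, array weights, the arrays in the fit, the replicate block, the choice of maturation genes and leaving out each array.

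Genes were named by rule: the 10 largest rises and the 10 largest falls in rd1, the 8 largest genotype differences each way, up to 6 members of each list, 5 of each maturation class, and Pde6b. Outside it, chosen after their values were seen, are Prph2, Abca4, Cnga1, Cngb1, Gucy2e, Pdc, Sag, Gngt1, Lca5, Crx, Nrl, Opn1sw, Gngt2, Egflam, Tmem119, Siglech, Spi1, Jun, Btg2, Hspa8, Hsp90aa1, Dnajb1, Hspa5, Hsp90b1, Calr, Gm11342 and Xist. Probe sets of a gene disagreed in places. The smallest change among the probe sets was 0.15 for Cebpd, 0.24 for Mt1, 0.02 for Slc16a1, 0.03 for Psmb8, 0.19 for Ctsc, 0.21 for Calb1, 0.23 for Cast, -0.19 for Dcx and -0.36 for Slc6a2, and 1 probe set of Sox4 gave 0.12.

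Same-numbered replicates were checked for pairing by the correlation of their deviations from the group means. In rd1 the PN9 and PN13 arrays gave 0.105, 0.361 and -0.28, so the numbers do not pair them. In WT they gave 0.477, 0.107 and 0.313, all above 0.1, and with the replicate number as a block WT had 2449 genes higher and 2254 lower.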

Additional observations from a re-analysis of the deposited data

Results flagged for a closer look

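The genes below stood out because their change from PN9 to PN13 differed between the genotypes by limma's test of the difference itself, 8 in each direction, given as the log2 change in rd1 minus that in WT. Rising more in rd1 were Pcolce (2.52), S100a6 (2.50), Cebpd (2.15), Edn2 (1.95), Fosb (1.90), Cd68 (1.88), Cebpb (1.88) and Gfap (1.88). The PN9 values of Pcolce, S100a6, Edn2 and Fosb in rd1 are low and were not tested against the background of the arrays. Rising less or falling more in rd1 were Pdzph1 (-2.15), Kcnj14 (-1.71), Cltrn (-1.64), Lrp4 (-1.39), Rgr (-1.39), Rpe65 (-1.17), Cldn7 (-1.14) and Glb1l2 (-1.14). Cldn7, a tight junction protein, fell by 0.42 in rd1 and rose by 0.73 in WT, and Cd68 moved the opposite way in each genotype. Groups of 3 arrays are too small for the test of outlying values, which was not run on them.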

How the results depend on the processing

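Of 115 genes named, which leave out Xist, 93 were called in rd1. Of these, 89 kept their call and direction under every alternative in which they were fitted, the exceptions being Rcvrn, Pdc, Psmc6 and Tmem176a. For the genotype difference these numbers were 57 and 53, with Samd11, Arr3, Guca1a and Rpe65 as exceptions. Centring on amacrine and ganglion genes took the median change of all genes to -0.249 in rd1 and -0.244 in WT. It gave 1018 genes higher and 10001 lower in rd1, 939 and 9912 in WT, 576 and 3755 from PN9 to PN11 and 335 and 2139 from PN11 to PN13. It turned Tmem176a to -0.10, Sag to -0.25, Hspa8 to -0.20, Hsp90aa1 to -0.24, Dnajb1 to -0.21 and Calr to -0.27. It also gave 267 rising maturation genes (208 rose in rd1, 6 fell) and 551 falling ones (522 fell). Quantile normalization gave 925 genes lower from PN9 to PN11. Under it 2 rising maturation genes fell, 5 falling ones stalled and 0 rose, which was also 0 with the mean of all probe sets. With array weights the genotype difference called 527 higher and 481 lower, PN9 to PN11 gave 2018 and 1267, PN11 to PN13 gave 596 lower, and the genotype difference over PN11 to PN13, added after the data were seen, gave 126 and 77. The last gave 33 lower when only the arrays compared were fitted. The cause of these shifts was not tested.

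With the replicate number as a block, PN9 to PN11 gave 1753 higher and 1171 lower and the difference over PN11 to PN13 gave 27 and 12. The change in rd1 from PN9 to PN13 gave 2506 and 1743, and the other counts of genes called in a comparison stayed within 1.5 times. The maturation classes were not recounted with the block or in the fit of only the arrays compared, so their stability under these is not known. Rising maturation genes chosen against PN5 and PN6 numbered 800 (626 rose, 74 stalled, 8 fell) and falling ones 627 (394 fell, 17 stalled, 12 rose). At a minimum log2 change of 2 there were 78 rising (75 rose, 24 rose less or stalled, 2 stalled, 0 fell) and 34 falling, of which 34 fell, 0 stalled and 0 rose.

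Leaving out each array in turn gave 2270 to 2590 genes higher and 1435 to 1882 lower in rd1, 1646 to 1836 and 1362 to 1682 in WT, and 218 to 332 and 206 to 364 for the genotype difference. The ranges were 693 to 1009 and 375 to 612 from PN9 to PN11, 411 to 661 and 167 to 299 from PN11 to PN13, and 46 to 81 and 11 to 33 for the difference over the latter. Rising maturation genes numbered 416 to 417, with 338 to 355 that rose, 64 to 84 that rose less or stalled, 29 to 42 that stalled and 0 to 1 that fell. Falling ones numbered 279 in each, with 225 to 237 that fell, 4 to 11 that stalled and 0 to 1 that rose. With 3 arrays a group, small differences may not have been detectable.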
